A study of Mus musculus with 6 samples.

Results

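Growth factor signals reach the nucleus of an endothelial cell largely through ERK, the last kinase of the RAS-RAF-MEK-ERK cascade. Fibroblast growth factor 2 (Fgf2, an angiogenic ligand) binds the receptor tyrosine kinase Fgfr1 and starts that cascade. Active ERK then raises the transcription of its own brakes. The dual-specificity MAPK phosphatases (Dusp genes) remove phosphate from ERK and related kinases, and the Sprouty and Spred proteins (Spry and Spred genes) act further up, between the receptor and RAF. The transcript levels of such feedback genes are commonly read as a sign of how active the pathway has been.

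The 10 genes of this circuit that were followed are the ligand Fgf2, the receptor Fgfr1, the phosphatases Dusp1, Dusp4, Dusp5 and Dusp6, and the inhibitors Spry1, Spry2, Spry4 and Spred1. A spot was taken when its design accession or description named a member. The members are 10 of 22282 genes named on the array, with 15 probes at 24 spots out of 55681 probes at 59305 non-control spots on each array. The 3 spots in the middle of the array (a central block of the spot grid, the same on every array), where 1G11-mock arrays read dim, were kept apart from the 21 spots elsewhere. The values are therefore given for 16 member features out of 55961, a feature being a probe with its copies in the middle averaged apart from its copies elsewhere.

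Both groups were the mouse microvascular endothelial cell line 1G11 (strain C57BL/6NCrLBR), and both were exposed for 6 h to conditioned medium of the mouse mammary cancer line N202.1A. The 1G11-SOD3 cells overexpressed superoxide dismutase 3, the secreted enzyme that removes superoxide outside cells, and the 1G11-mock cells were the control line without the overexpression. RNA from 3 biological replicates per line was hybridized to 6 single-color Agilent arrays on 1 slide. Each line was a separately derived culture, and all 1G11-mock arrays lay in slide row 2 and all 1G11-SOD3 arrays in row 1, so that SOD3, the history of the line and the slide row cannot be told apart. No arrays of cells without conditioned medium were analysed here.

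Between 34.2% and 36.0% of non-control spots were well above background on the 1G11-mock arrays and between 38.4% and 43.8% on the 1G11-SOD3 arrays, so that the lines did not overlap in this share, and no spot was saturated. The Sod3 probe, which lies in the middle of the array, read 13.61, 12.66 and 9.86 log2 intensity on the 1G11-mock arrays and 16.37, 16.30 and 16.26 on the 1G11-SOD3 arrays, as the labels say (log2 difference 4.27, limma adjusted p = 0.00763; 2.77 after position adjustment, adjusted p = 0.0167). Each marker gene was read by its brightest probe outside the middle. Among 12 endothelial marker genes with such a probe, Kdr, Eng and Vwf were well above background on all arrays. Another 7, Cdh5, Tek and Tie1 among them, were so on none. A second Kdr probe, with 10 copies outside the middle, averaged 6.84 in 1G11-mock and 6.91 in 1G11-SOD3 cells. It was well above background on no array, so the Kdr probes disagree. The summed intensity of the 12 ranged from 20413 to 29877 on 1G11-mock and from 13072.5 to 15600 on 1G11-SOD3 arrays. The sums came largely from Eng and the brighter Kdr probe, neither of which was called. Eng averaged 13.81 log2 intensity in 1G11-mock and 12.76 in 1G11-SOD3 cells, and that Kdr probe 12.89 and 12.39. Of the 12, 1 was called lower, Vwf, at 10.16 and 8.51, which adds little to the sums. Of 10 pericyte, smooth muscle or fibroblast markers, 4 were called higher in 1G11-SOD3 cells (Acta2, Col1a1, Pdgfrb and Lum) and 3 were well above background on no array. The summed intensity of the 10 lay between 22470 and 36562 on 1G11-mock arrays and was 49438, 42171 and 175225 on 1G11-SOD3 arrays. The last value came largely from Dcn, which was not called and read 17.05 there against 13.51 and 13.59 on the other SOD3 arrays. Without Dcn the sums lay between 5611 and 8500 in the control line and between 29879 and 39127 in the SOD3 line. None of 8 epithelial or mammary cancer markers was called. Their summed intensity ranged from 67904 to 112559 on 1G11-mock and from 45074.5 to 85078 on 1G11-SOD3 arrays, with overlap. It came largely from Krt19, which averaged 16.48 log2 intensity in 1G11-mock and 15.96 in 1G11-SOD3 cells. Of 6 leukocyte markers, 0 were called, 4 were well above background on no array and 2, Itgam and Cd3e, on all. The summed intensity of the 6 ranged from 17752 to 24552 on 1G11-mock and from 19099 to 24129 on 1G11-SOD3 arrays, with overlap. The part of these differences in the member values was not tested, and in bulk RNA fewer cells of a type cannot be told apart from less RNA per cell.

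A first result concerns which transcripts the arrays could measure at all. In the control line and in the SOD3 line alike, Fgfr1, Dusp1, Dusp4, Dusp6, Spry1 and Spred1 were measured well above background, while the probes of Fgf2, Dusp5, Spry2 and Spry4 stayed at or close to background. Well above background is the scanner software's own mark for a spot, and a feature carried it on an array when 50% or more of its copies did. Of the 16 features, 9, from 6 genes, met it on all 6 arrays, 5 on none and 2 on 1 array. All 9 lie outside the middle. The probes below are printed for 3 members whose 60 bases read through without a stop codon in at least 1 frame, for comparison of a receptor that was bright with a ligand and a phosphatase that were not. Sequences are those of the array design, 5′ to 3′, with no part marked.
Fgf2: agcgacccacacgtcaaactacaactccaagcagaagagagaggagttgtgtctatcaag
Fgfr1: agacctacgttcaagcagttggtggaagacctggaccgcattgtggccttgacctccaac
Dusp5: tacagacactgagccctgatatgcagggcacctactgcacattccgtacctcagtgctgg

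Fgf2 is the best sampled member, since its probe is spotted 10 times on each array. The copies outside the middle, 8 on each array except 7 on 1G11-mock array 2, where 1 was marked as an outlier, averaged 6.97, 7.11 and 7.24 log2 intensity on the 1G11-mock arrays and 7.22, 7.50 and 7.25 on the 1G11-SOD3 arrays. The lines overlapped. Of the 60 readings, 2 were marked well above background, 1 on 1G11-SOD3 array 2 and 1 in the middle of 1G11-SOD3 array 3, where the copy was also marked as an outlier and left out of the average. The 308 negative control spots of an array had medians of 6.53 to 6.79, and single Fgf2 readings outside the middle exceeded between 22.7% and 100% of them. No fold change is given for Fgf2, because neither line held the probe above background. A second Fgf2 probe, designed on an alternatively spliced transcript, read 6.02, 6.31 and 6.62 in 1G11-mock and 6.85, 6.87 and 6.49 in 1G11-SOD3 cells and was well above background on no array. Fgf2 transcript was thus not detectable with these probes, which does not show that it was absent.

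**Figure D1:**
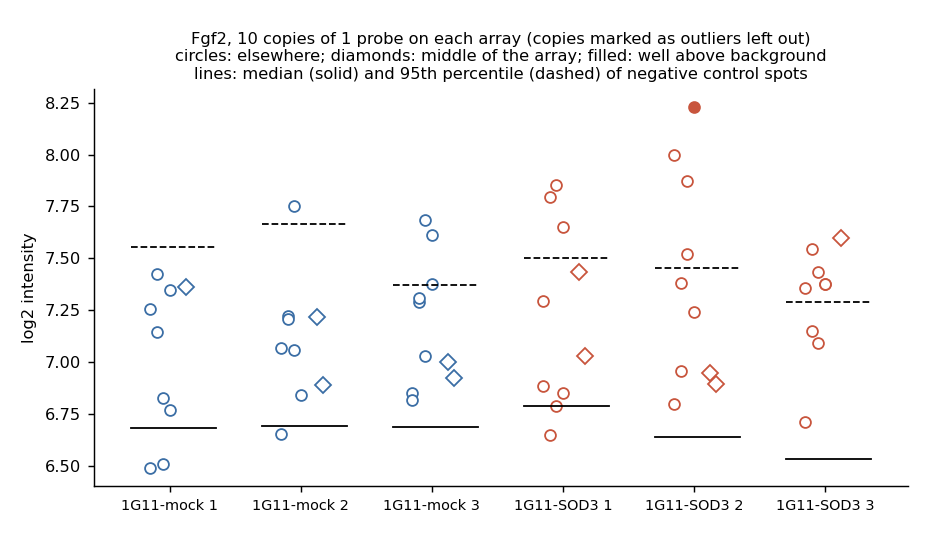
Log2 intensity of each copy of the Fgf2 probe that was not marked as an outlier, on the 6 arrays, with circles for copies outside and diamonds for copies in the middle of the array, filled where the copy was well above background, and lines for the median and the 95th percentile of 308 negative control spots. The copies lie around and above the control medians, and the highest of those shown, 8.23 on 1G11-SOD3 array 2, is the 1 filled symbol.

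Another 2 copies of the Fgf2 probe lie in the middle of the array. At their spots the moving-median surface of bright neighbors was 2.30 and 2.48 log2 units higher on 1G11-SOD3 than on 1G11-mock arrays. The averaged copies nevertheless read 7.36, 7.05 and 6.96 against 7.23, 6.92 and 7.60, with overlap between the lines. Spry4, a Sprouty inhibitor whose only probe also lies in the middle, read 7.45, 6.68 and 7.19 against 7.28, 7.38 and 7.02 and was well above background on no array.

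The remaining dim members behaved alike. Dusp5, a nuclear phosphatase for ERK, read 7.18, 6.86 and 7.55 in 1G11-mock and 7.49, 7.23 and 7.31 in 1G11-SOD3 cells, and its readings exceeded 53.9% to 98.4% of the negative controls. Spry2, an inhibitor of receptor tyrosine kinase signaling, read 7.63, 7.61 and 7.30 against 7.40, 7.61 and 7.84 and was well above background on 1 array, of 1G11-SOD3. A further Spred1 probe, for transcript variant 2, read 6.67, 7.34 and 7.24 against 6.97, 6.86 and 7.18. The lines overlapped for each of these probes, and none of them allows a fold change.

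Fgfr1 was measured by 3 probes that were bright on all arrays, and they did not move in 1 direction. The probe whose sequence is printed above (chr8:26684061-26684120 in the array annotation, whose build the files do not give) read 11.16, 12.31 and 12.32 log2 intensity in 1G11-mock and 10.84, 11.21 and 12.20 in 1G11-SOD3 cells. Here 2 control arrays and 1 array of the SOD3 line were high and the others about 1 unit lower, so the lines overlapped (log2 difference -0.52, SE 0.39, limma adjusted p = 0.611). With 1 array left out the difference ranged from -0.92, without 1G11-SOD3 array 3, to -0.23, without 1G11-SOD3 array 1, and it was not called in any of these fits. Between arrays of the same replicate number it was -0.32, -1.10 and -0.12. A second probe read 9.34, 9.80 and 9.80 against 9.42, 9.40 and 9.16 (log2 difference -0.31, SE 0.23, adjusted p = 0.597). The third, at chr8:26685072-26685131, read 15.35, 15.39 and 14.63 against 15.14, 15.60 and 15.42 (log2 difference 0.26, SE 0.27, adjusted p = 0.721). The receptor's transcript was therefore present in both lines, with no difference that exceeded the spread between arrays. The interval of the first probe, -1.38 to 0.34, leaves room for a change beyond 2-fold, and those of the other 2 do not.

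The phosphatases Dusp1, Dusp4 and Dusp6 stood lower in the SOD3 line than in the control line on every array, without overlap, by 1.40-fold, 2.03-fold and 1.58-fold in the mean. Of all features outside the middle and well above background on all arrays, 20.9% were likewise lower without overlap. None of the 3 phosphatases passed the call, which required a change above 2-fold with an adjusted p below 0.05 across the 55961 features.

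Dusp4, a nuclear phosphatase for ERK and JNK that is itself induced by ERK, had the largest difference of the members that could be measured. Its probe (chr8:35882045-35882104 in the array annotation) read 10.17, 9.67 and 9.91 log2 intensity in 1G11-mock cells, a mean of 9.92 ± 0.25 (SD, n = 3), and 9.35, 8.90 and 8.45 in 1G11-SOD3 cells, a mean of 8.90 ± 0.45 (SD, n = 3). The highest 1G11-SOD3 array lay below the lowest 1G11-mock array. The log2 difference was -1.02 with SE 0.27 and a 95% interval of -1.62 to -0.42, and the adjusted p by limma was 0.0764. It was -0.64 (adjusted p = 0.158) after position adjustment, which takes off the smooth pattern of each array's surface before normalization. It was -0.86 (adjusted p = 0.179) when the spots in the middle were left out of the normalization. With the replicate number as a block the difference was still -1.02, the adjusted p 0.0379 and Dusp4 was called, beside 4.1% of all features and 4.33% called lower among features outside the middle and well above background on all arrays.

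Dusp6, the cytoplasmic phosphatase specific for ERK and one of the most direct readouts of FGF signaling, read 12.15, 12.34 and 12.29 in 1G11-mock cells, a mean of 12.26 ± 0.10 (SD, n = 3). In 1G11-SOD3 cells it read 12.01, 11.55 and 11.24, a mean of 11.60 ± 0.39 (SD, n = 3). The 1G11-mock arrays lay close together and the 1G11-SOD3 arrays spread below them. The log2 difference was -0.66 (SE 0.25, 95% interval -1.20 to -0.11, adjusted p = 0.235 by limma). Unlike that of Dusp4, it barely moved with the position adjustment (-0.62, adjusted p = 0.114). It was -0.49 (adjusted p = 0.435 by limma) when the spots in the middle were left out of the normalization.

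Dusp1, an immediate early phosphatase that acts on p38 and JNK as well as on ERK, read 9.90, 9.94 and 10.68 in 1G11-mock and 9.74, 9.74 and 9.57 in 1G11-SOD3 cells. The third 1G11-mock array was high, and the other 5 arrays lay close together. The log2 difference was -0.49 (SE 0.26, adjusted p = 0.430 by limma), and -0.24 without that array as well as after position adjustment.

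The promoters of Dusp1 and Dusp6 are printed because both transcripts stood lower without overlap, and because their sequences hold different short motifs of factors known to act downstream of kinases. They are the 250 bases before the annotated start in RefSeq on GRCm38.p6, 5′ to 3′ on the strand of the gene, and their coordinates are not on the scale of those in the array annotation. Capitals mark, in Dusp1, the cyclic AMP response element TGACGTCA and, in Dusp6, CTTCCG, the reverse of the ETS core CGGAAG.
Dusp1, chr17:26508473-26508722, minus strand: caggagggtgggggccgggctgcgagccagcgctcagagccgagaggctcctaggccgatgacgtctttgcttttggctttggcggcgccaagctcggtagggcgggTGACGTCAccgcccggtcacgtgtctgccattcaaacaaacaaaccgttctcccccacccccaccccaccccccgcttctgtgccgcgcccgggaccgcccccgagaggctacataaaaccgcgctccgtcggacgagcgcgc
Dusp6, chr10:99262981-99263230, plus strand: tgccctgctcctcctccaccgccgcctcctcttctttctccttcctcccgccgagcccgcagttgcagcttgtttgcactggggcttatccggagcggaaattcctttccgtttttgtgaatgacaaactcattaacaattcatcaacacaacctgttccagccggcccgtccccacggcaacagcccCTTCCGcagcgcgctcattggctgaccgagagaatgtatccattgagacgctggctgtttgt

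Of the 10 members, 7 had an entry in the promoter table. Both motifs and TATAAA were searched on both strands in the 250 bases before the start. CGGAAG occurred in Dusp6 and Spred1 and in 13.6% of all 32851 promoters. TGACGTCA, a palindrome, occurred in Dusp1 and in 1.55% of all promoters, and TATAAA in none of the 7 and in 12.4% of all. These matches are a description of letters.

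The Sprouty and Spred inhibitors that could be measured differed little between the lines. Spry1, which restrains signaling from receptor to ERK, read 9.77, 9.33 and 10.68 log2 intensity in 1G11-mock and 10.12, 10.02 and 10.10 in 1G11-SOD3 cells. The 1G11-SOD3 arrays agreed closely and fell within the wide range of the 1G11-mock arrays (log2 difference 0.15, SE 0.32, adjusted p = 0.875 by limma). Spred1, a membrane-bound inhibitor that recruits neurofibromin to RAS, was read by 2 bright probes. One gave 9.37, 9.53 and 10.18 against 9.54, 9.33 and 9.66 (log2 difference -0.18, SE 0.26, adjusted p = 0.808), and the other 10.84, 10.56 and 10.81 against 10.50, 10.52 and 10.69 (log2 difference -0.17, SE 0.22, adjusted p = 0.782). Both overlapped between the lines. The third 1G11-mock array was the highest of all 6 for Dusp1, Spry1 and the first Spred1 probe. The 95% intervals of Spry1, -0.54 to 0.85, and of the Spred1 probes, -0.76 to 0.39 and -0.65 to 0.31, lie within 2-fold.

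**Figure D2:**
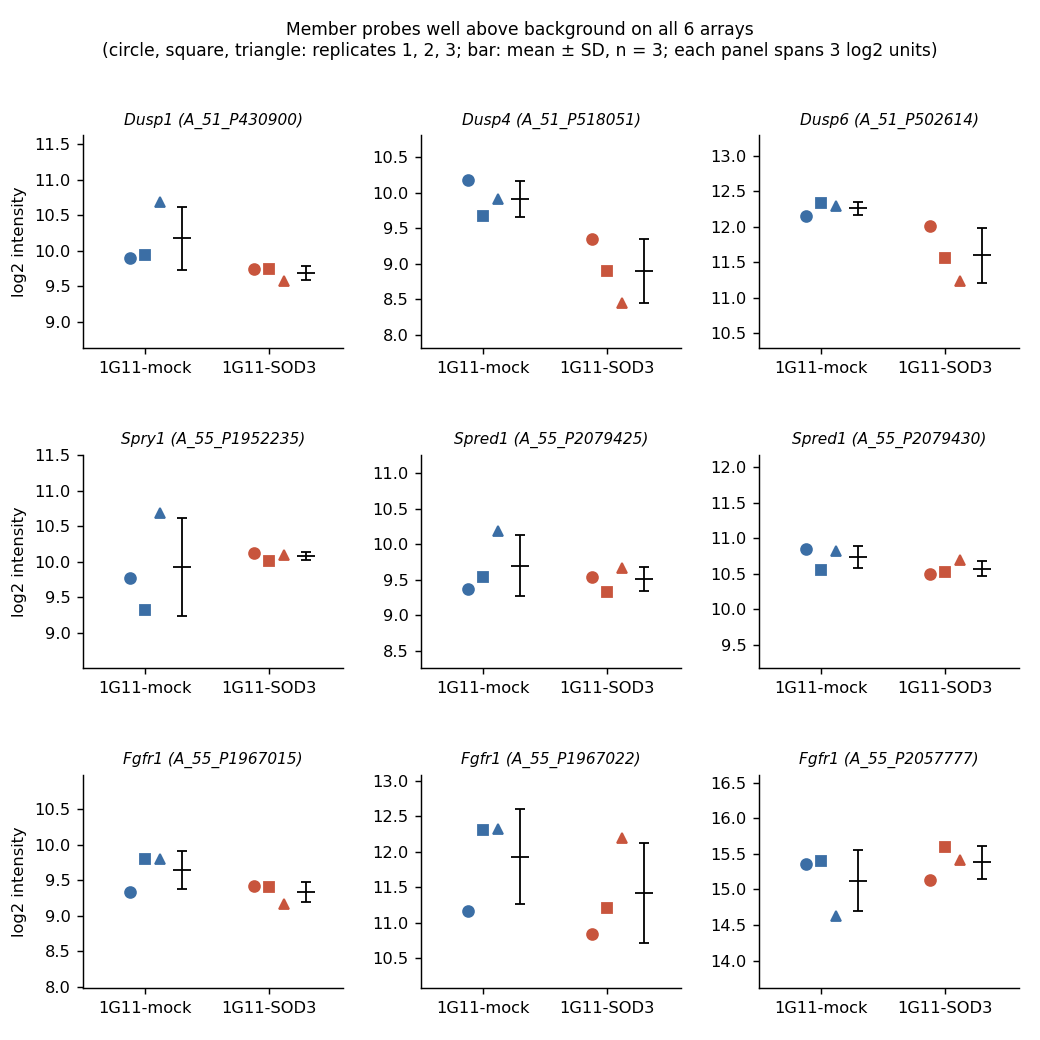
Log2 intensity of the 9 member probes well above background on all 6 arrays, with 1 symbol per array and the mean ± SD of 3 arrays per line; every panel spans the same number of log2 units. Dusp1, Dusp4 and Dusp6 have all 1G11-SOD3 arrays below all 1G11-mock arrays, and the other 6 probes overlap.

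Across the members, then, 0 of 16 features were called by limma, where 3.02% of all features and 1.86% of those outside the middle were called. At an unadjusted p under 0.05 by limma there were 2, Dusp4 and Dusp6, with adjusted p of 0.0764 and 0.235. In the middle of the array 12% of all features were called. Of the 9 features well above background on all arrays, 7 had a lower and 2 a higher mean in 1G11-SOD3 cells. After position adjustment the Fgfr1 probe at -0.31 stood at 0.13, and the 9 differences ran from -0.64 to 0.40. Before that adjustment the median log2 difference of the 9 was -0.31. It was -0.17 for all features outside the middle and well above background on all arrays. Of such features, 4.56% were called in either direction and 3.29% lower. The 3 that were lower without overlap compare with 20.9% of such features, and the 0 that were higher without overlap with 8.02%. The 95% interval lay wholly below 0 for 2 of the 9, Dusp4 and Dusp6, and wholly within 2-fold for 5. The shares of all features with such intervals, or at an unadjusted p under 0.05, are not given here. These counts are therefore not read as a result about the members. With 3 arrays against 3, an exact two-sided permutation test of a single probe cannot give a p below 0.1.

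**Figure D3:**
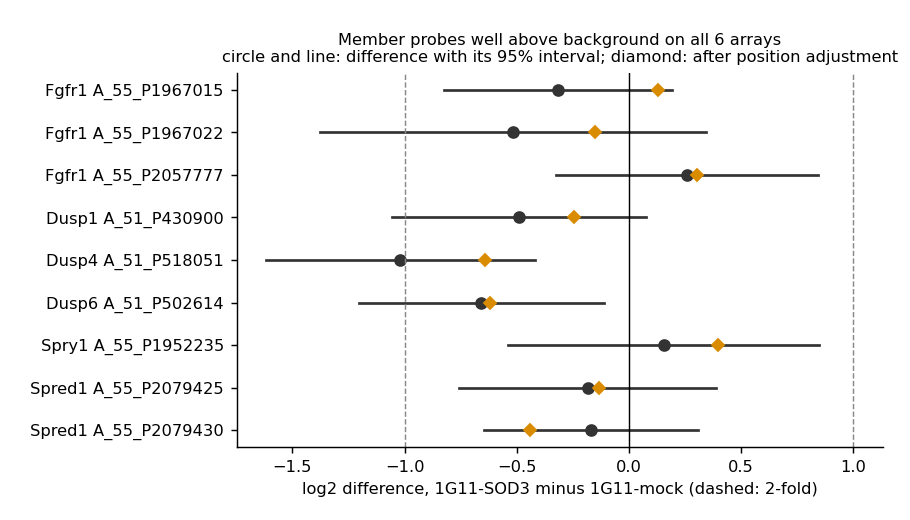
Log2 difference of 1G11-SOD3 minus 1G11-mock for the 9 member probes well above background on all 6 arrays, with its 95% interval from limma (circle and line) and the value after position adjustment (diamond); dashed lines mark 2-fold. The intervals of Dusp4, -1.62 to -0.42, and Dusp6, -1.20 to -0.11, lie below 0, and 1 Fgfr1 diamond, at 0.13, lies on the other side of 0 from its circle.

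The wider circuit was read from 6 lists of 80 further genes, all on the array, 77 of them with a probe outside the middle and 39 well above background on all arrays. Each gene was represented by its brightest probe outside the middle. Of the 77, 1 gene was called higher, the ligand Fgf18, and 1 lower, the receptor tyrosine kinase Epha4, beside 0.66% higher and 1.2% lower among all features outside the middle. The median log2 difference of the 39 bright genes was -0.19. None of the 6 further MAPK phosphatases and none of the 4 further Sprouty, Spred and Sef genes was called. Of these, the brightest were Dusp7, a cytoplasmic ERK phosphatase, at -0.19 (adjusted p = 0.769), and Spred2 at -0.67 (adjusted p = 0.370). Dusp7 was well above background on all arrays, and Spred2 on 3 control arrays and 2 arrays of the SOD3 line. Il17rd, which encodes Sef, had the largest difference of the Sprouty list and in the other direction, and is named after its values were seen. It read 8.10, 7.15 and 6.94 in the control line, well above background on no array, and 8.55, 8.26 and 8.39 in the SOD3 line, well above background on all 3. Before position adjustment it was thus at least 1.34-fold higher without overlap (adjusted p = 0.116 by limma), a bound taken against the dimmest spots well above background. The bound does not hold after position adjustment, which also shifts readings at background. The log2 difference was 1.00 before that adjustment and 0.37 after it (adjusted p = 0.404 by limma).

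Fgf18, a secreted ligand of the FGF8 subfamily with roles in bone and lung growth, was the FGF whose transcript rose in 1G11-SOD3 cells. Its brighter probe read 10.52, 10.26 and 10.68 log2 intensity in 1G11-mock and 11.69, 11.69 and 11.84 in 1G11-SOD3 cells, a difference of 1.25 (SE 0.22, 2.38-fold, adjusted p = 0.0112 by limma). All 1G11-SOD3 arrays lay more than 1 unit above the 1G11-mock mean. A second Fgf18 probe read 9.59, 9.26 and 8.65 against 10.57, 10.99 and 10.31 and was also called (difference 1.46, 2.74-fold, adjusted p = 0.0204). After position adjustment the differences were 1.17 (adjusted p = 0.0215) and 1.26. The brighter probe was no longer called without 1G11-mock array 2 (adjusted p = 0.0541) or 1G11-SOD3 array 3 (adjusted p = 0.0507), nor when the processed signal was used (difference 0.90, adjusted p = 0.0855). The second was no longer called without 1G11-mock array 2 or 3 or 1G11-SOD3 array 1 or 2, at adjusted p of 0.0561 to 0.0848. Of the 19 FGF ligands outside the middle other than Fgf2, 13 were well above background on no array, and no other was called before position adjustment, after which Fgf8 was called lower at -1.65 (adjusted p = 0.0493). That Fgf8 probe was well above background on 3 control arrays and 2 arrays of the SOD3 line. The other Fgf8 probes outside the middle were so on no array and were not called before or after the adjustment.

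Among 11 FGF receptors, coreceptors and binding proteins other than Fgfr1, 0 were called, beside 1.86% of features outside the middle. The 2 brightest receptors were Fgfrl1, a receptor that lacks a kinase domain, at 0.19 (adjusted p = 0.792) and Fgfr3 at 0.11 (adjusted p = 0.907). Of the 5 genes of this list well above background on all arrays, 2 were higher without overlap, beside 8.02% of such features: the receptor Fgfr2 at 0.65 (adjusted p = 0.245) and Flrt1 at 0.86 (adjusted p = 0.220). The binding protein gene Fgfbp3 was also higher without overlap, at 1.05 (adjusted p = 0.187), on 2 control arrays and 3 arrays of the SOD3 line above background. After position adjustment Fgfr2 stood at 0.50, Flrt1 at 1.20 and Fgfbp3 at 0.30, and none was called. Fgfr2, Flrt1 and Fgfbp3 were named after their values were seen. Of the 22 adaptors and members of the RAS-RAF-MEK-ERK cascade, 18 were well above background on all arrays and 0 were called. Mapk3, which encodes ERK1 and was the brightest, stood at 0.81 (adjusted p = 0.390) by one probe and at -0.56 (adjusted p = 0.408) by another. After position adjustment these Mapk3 probes stood at -0.10 and -0.20. No bright gene of this list was higher without overlap. Lower without overlap, as were 20.9% of all such features, but not called were among others Map2k1, which encodes MEK1, at -1.21 (adjusted p = 0.0620), Gab1 at -0.78, Sos2 at -0.53 and Nf1 at -0.49, named after their values were seen. Position adjustment moved Map2k1 to -0.97, Gab1 to -0.27, Sos2 to -0.45 and Nf1 to -0.36.

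The ERK-responsive transcripts other than the members had a median log2 difference of -0.47 over the 10 genes well above background on all arrays. The median was -0.17 for all such features outside the middle, and -0.36 over all 15 listed genes there. These medians are before position adjustment. The 1 called was Epha4, which read 8.96, 9.54 and 9.76 in 1G11-mock and 7.54, 7.64 and 7.79 in 1G11-SOD3 cells (difference -1.76, SE 0.26, adjusted p = 0.00375 by limma). The probe was well above background on 3 control arrays and 1 array of the SOD3 line, and the difference was -1.46 after position adjustment (adjusted p = 0.00922). Of the 10, 4 were lower without overlap, beside 20.9% of such features, but not called: Epha2 at -1.02, Maff at -1.09, Phlda1 at -0.86 and Myc at -0.59, named after their values were seen. Ier3 was higher without overlap at 0.36, as was Etv1 on few arrays above background. The immediate early gene Egr1, at -0.17 (adjusted p = 0.902), and the ETS factors Etv4 and Etv5, at 0.09 and 0.24, overlapped between the lines. Etv4 and Etv5 are often used as readouts of FGF signaling. Position adjustment moved Epha2 to -0.70, Maff to -0.86, Phlda1 to -0.84 and Myc to -0.31. It moved Ier3 to 0.12, Egr1 to -0.04, Etv4 to 0.22 and Etv5 to 0.60. Ccnd1, whose only probe lies in the middle, was called higher at 2.69 (adjusted p = 0.0353), beside 12% of features there, and stood at 0.85 (adjusted p = 0.246) after position adjustment.

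**Figure D4:**
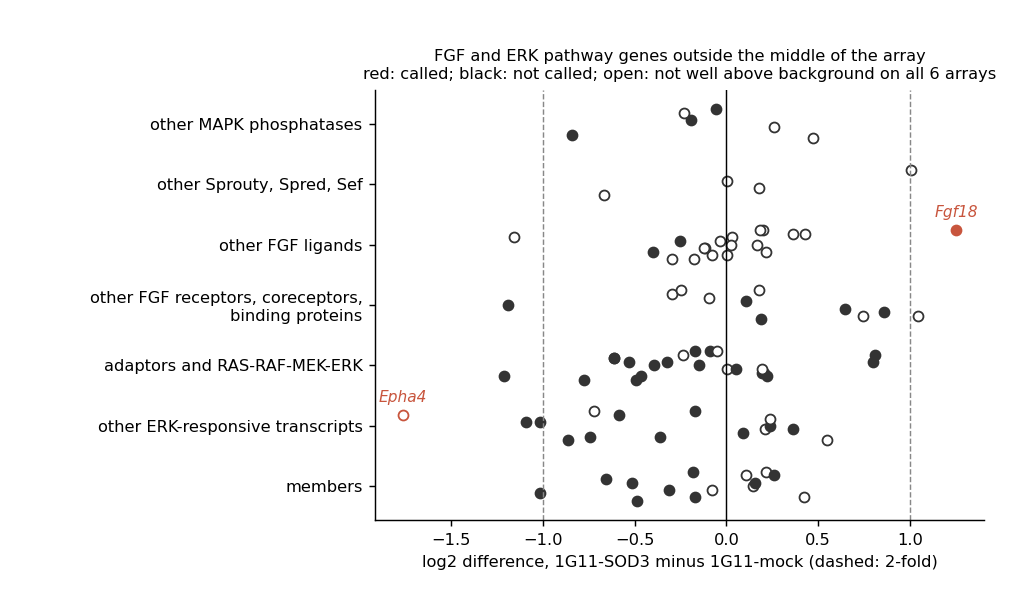
Log2 difference of 1G11-SOD3 minus 1G11-mock for the 77 listed genes with a probe outside the middle, 1 row of points per list, and for the member features outside the middle; red points were called, open points were not well above background on all 6 arrays, and dashed lines mark 2-fold. Fgf18 at 1.25 and Epha4 at -1.76 are the called points.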

How the data were processed

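RNA of 3 1G11-mock and 3 1G11-SOD3 cultures was measured on 6 single-color arrays. For each array the authors deposited Agilent Feature Extraction 10.7.3.1 output with the mean and median intensity of each spot, its local background and a processed signal, not normalized between arrays. A table of log2 values, also deposited by the authors (normexp with an offset of 50, then quantile normalization), served as an alternative and was recomputed to within 0.005. Here normexp (offset 50) was applied to the mean intensity, control spots were left out, and limma 3.58.1 (R 4.3.3) quantile normalized the log2 values. Copies marked as non-uniform or population outliers were left out. The lines were compared over all 55961 features with limma (empirical Bayes, p adjusted after Benjamini and Hochberg), with calls above 2-fold at an adjusted p below 0.05, with no covariate, as in the study's methods. The position adjustment took off each array's moving-median surface (within 12 rows and 6 columns, at least 20 spots) before normalization. It lowered the SD of the difference between lines among copies of one probe from 0.546 to 0.208 over 200 probes. It shifts readings at background by the surface itself, so that adjusted values of dim members carry no difference between the lines and none is given except where one was called. Figures were drawn in Python 3.11.15, pandas 2.3.3 and matplotlib 3.10.9. The procedure was tested on simulated data.

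Genes were named from the accession or description of the probe in the files. Members and gene lists were chosen with earlier results of these data known. The text names all members, Sod3, the listed genes that were called outside the middle, the brightest gene of a list with none called, and the 2 brightest FGF receptors. Any other listed gene, Egr1, Etv1, Etv4, Etv5, Ier3, Fgf8, Il17rd and Ccnd1 included, was named after its values were seen. The values of 1 listed gene are not reported here. The number of arrays, 3 per line, limits the precision of each difference, and the p-values measure the spread between replicate cultures of 1 line each. Alternatives covered the background correction, the intensity used, the normalization, the outlier copies, dim features, the middle of the array, the variance trend, the replicate block, the deposited table and each array left out in turn. Promoters are RefSeq's on GRCm38.p6.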

Additional observations from a re-analysis of the deposited data

How the results depend on the processing

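Under 21 alternatives for each of the 9 member probes well above background, 184 values kept their direction and their side of the threshold and 5 did not. Dusp4 kept its direction under all, between -1.23 and -0.64 on the log2 scale with adjusted p from 0.0379 to 0.229, Dusp6 between -0.85 and -0.39, and Dusp1 between -0.63 and -0.20. The sign turned for 4 probes that overlapped between the lines: the Fgfr1 probe at -0.31 stood at 0.13 after position adjustment, the first Spred1 probe at 0.060 without 1G11-mock array 3 (-0.35 to 0.060 with 1 array left out), the second at 0.0067 with the middle left out, and Spry1 at -0.15 without 1G11-mock array 2 (-0.15 to 0.54 with 1 array left out). The number of member features called, 0, became 1 in 3 settings and stayed 0 in each leave-one-out fit. With position adjustment it was Fgf2 in the middle (-1.82, adjusted p = 0.00388), and with the processed signal Spry4 (-1.75, adjusted p = 0.0222), both not above background. With the replicate number as a block it was Dusp4, at -1.02 (adjusted p = 0.0379). Same-numbered arrays deviated together with correlations of 0.167, 0.225 and 0.088 over all features, and of 0.141, 0.144 and 0.236 over features outside the middle and well above background on all arrays. Every array correlated best with its own number. The labels do not say what the numbers share, so whether they pair the arrays is not settled here. The block called 2296 of all features against 1692. Of the listed genes, 2 were called, against 5 with the replicate block, 4 with dim features left out, 7 with the processed signal and 1 to 5 with 1 array left out. Over all features the 1692 calls became 2687 with scaling to the 75th percentile, 768 with the middle left out, 1093 with no background correction, 11244 with the processed signal and 801 to 1878 with 1 array left out. Scaling to the 75th percentile moved the median of all features to -0.33 and the processed signal to -0.52, against -0.03. The share of higher calls was 1095 of 1692, and was 617 of 2157 with position adjustment, 1591 of 2687 with 75th percentile scaling and 1235 of 11244 with the processed signal. The cause was not tested. Signal over background limits Fgf2, Dusp5, Spry2 and Spry4, for which no difference was measured.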
